A study of Mus musculus with 24 samples.

Results

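The genes described here were chosen to cover the mitochondrial protein import machinery and were measured by polyA RNA sequencing in brown adipose tissue of C57BL/6J mice. They were taken from the table by symbol: every gene named Timm or Tomm followed by a digit, together with Pam16, Dnajc19, Grpel1, Hspa9, Hspd1, Hspe1, Pmpca, Pmpcb and Timmdc1, and without entries marked as pseudogenes. This gave 34 of the 23017 genes in the table, and all 34 passed the filter on low values that left 17263 genes for testing. The 34 include Tomm6os, a noncoding transcript, and Timmdc1, an assembly factor of respiratory complex I, and both stay in the counts below. The 24 samples form 4 groups of 6. The TZP group received tirzepatide, a peptide that activates the receptors for the incretin hormones GIP and GLP-1, and the LAGIPRA group received LAGIPRA, a long-acting peptide that activates the GIP receptor alone. PairFedVehicle mice received vehicle under pair feeding, in which food is limited to the amount eaten by another group, and Vehicle mice received vehicle alone. The series title describes obese, insulin-resistant animals. Doses, duration, age, sex, diet and the group that set the food of the pair-fed mice are not stated in the labels. The labels do not say that the 6 samples of a group came from separate mice, so p-values measure the spread between these samples, which may be technical. The sample codes run consecutively within each group, so if they follow the order of processing, that order and treatment cannot be told apart.

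Nearly all mitochondrial proteins are encoded in the nucleus, made in the cytosol and carried across the mitochondrial membranes as unfolded precursors. They enter through the TOM complex of the outer membrane. Precursors with a cleavable targeting sequence pass on through the TIM23 complex of the inner membrane, pulled by an ATP-driven motor. Carrier proteins are instead escorted by small TIM chaperones to the TIM22 complex. Brown adipocytes are densely packed with mitochondria, and their uncoupling protein UCP1 belongs to the carrier family. Much of this pathway was worked out in yeast, and the roles below are those of the mammalian counterparts.

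The deposited values were taken as log2, quantile normalized, with an offset near 1. This scale was inferred from the values and is not stated in the labels, and with such an offset fold changes of weakly expressed genes are understated. All 8 brown adipocyte markers were present, with Ucp1 between 15.09 and 15.91 in TZP, 15.09 and 15.68 in LAGIPRA, 15.09 and 15.51 in PairFedVehicle, and 14.70 and 15.14 in Vehicle. The 8 together averaged 10 to 11.2 in TZP, 10.4 to 10.8 in LAGIPRA, 10.2 to 10.8 in PairFedVehicle and 10 to 10.7 in Vehicle. The markers did not all move one way: the median of Prdm16 was 3.88 in TZP, 5.15 in LAGIPRA, 5.09 in PairFedVehicle and 4.91 in Vehicle, and that of Ppargc1a was 5.12 in TZP, 5.52 in LAGIPRA, 5.45 in PairFedVehicle and 5.44 in Vehicle. The TZP libraries were spread and overlapped Vehicle. Prdm16 ran from 3.16 to 5.24 in TZP and 4.72 to 5.35 in Vehicle, and Ppargc1a from 4.12 to 6.50 and 5.05 to 5.64. The 12 skeletal muscle markers averaged close to 0 in TZP 3 (0.816), PairFedVehicle 5 (0.55) and Vehicle 1 (0.722), against 4.47 to 10.7 in the other libraries. The 5 endothelial markers averaged 7.82 to 8.32 in TZP, 8.43 to 8.56 in LAGIPRA, 8.45 to 8.62 in PairFedVehicle and 8.44 to 8.77 in Vehicle. The 5 macrophage markers averaged 7.77 to 8.93 in TZP, 7.59 to 8.72 in LAGIPRA, 7.85 to 9.54 in PairFedVehicle and 8.11 to 9.34 in Vehicle. The 4 erythroid markers averaged 10.1 to 11.6 in TZP, 12 to 12.9 in LAGIPRA, 10.7 to 13.3 in PairFedVehicle and 11.4 to 12.8 in Vehicle. Depth per library is unknown, but the commonest of the low values in a library probably stands for 1 read and is larger where depth is lower. Its group medians were 1.37 in TZP, 1.26 in LAGIPRA, 1.17 in PairFedVehicle and 1.01 in Vehicle.

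Import genes were higher under both drugs than in Vehicle, and pair feeding alone gave no call. In TZP 22 of the 34 genes were higher than in Vehicle and 0 were lower, against 11.7% of all tested genes higher and 10.3% lower. In LAGIPRA 15 were higher and 0 lower, against 8.7% of all tested genes higher and 5.03% lower. In PairFedVehicle limma called 0 higher and 0 lower at an adjusted p under 0.05, where 4.96% of all tested genes were higher and 3.66% lower. At an unadjusted p under 0.05 there were 2 of the 34 higher and 0 lower, against 3977 of the 17263 tested genes in either direction. The changes were small: the median log2 fold change of the 34 genes was 0.27 in TZP (0.04 over all tested genes), 0.25 in LAGIPRA (0.03) and 0.04 in PairFedVehicle (0.02). The 3 comparisons share the Vehicle samples. In bulk tissue, fewer cells of a type and less RNA per cell cannot be told apart.

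**Figure D1:**
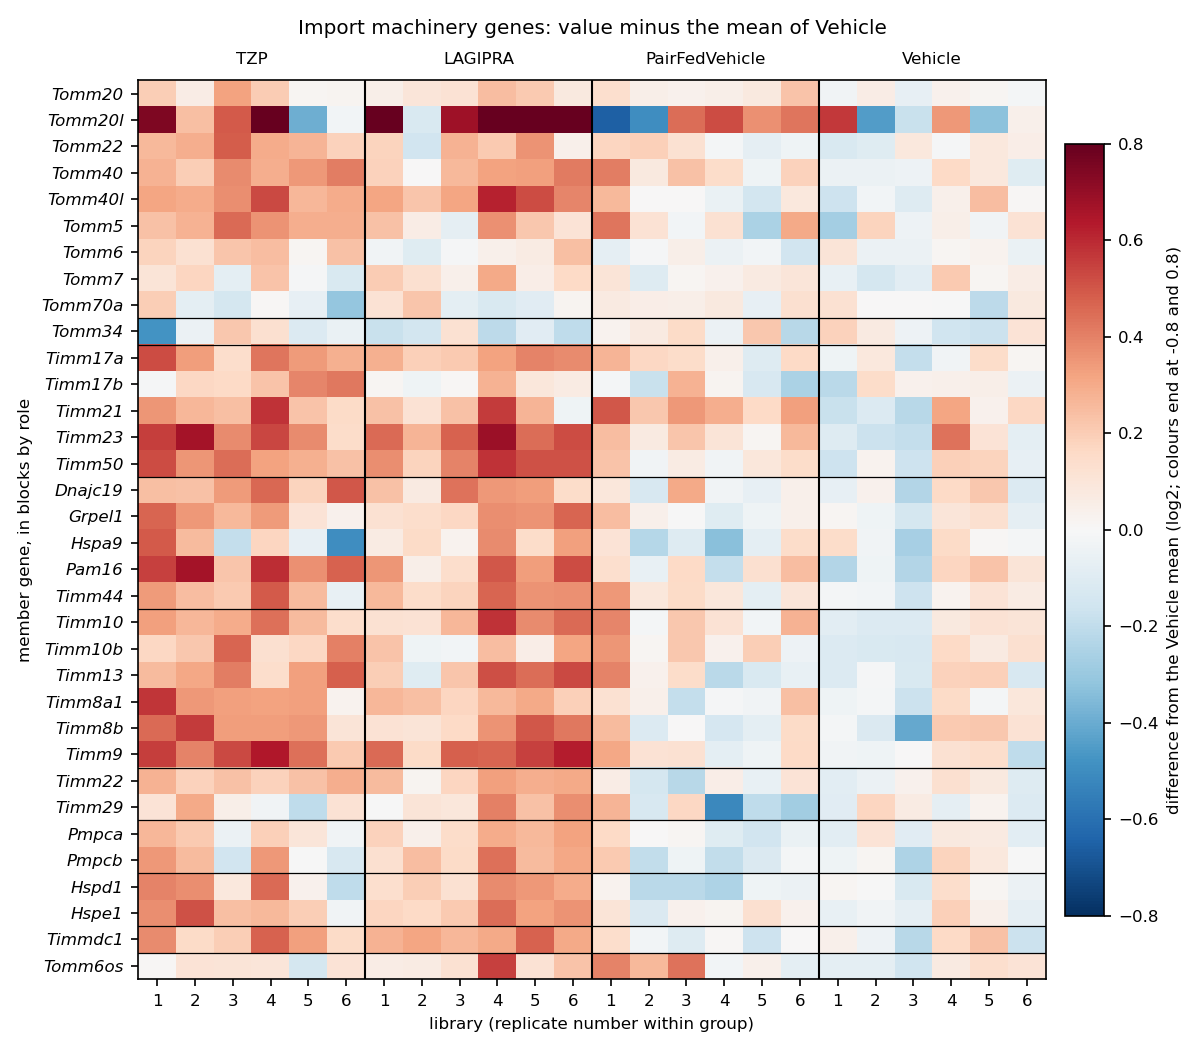
Each cell is the log2 value of a member gene in a library minus the mean of the 6 Vehicle libraries, with genes in rows by role and libraries 1 to 6 of each group in columns; the colour scale ends at -0.8 and 0.8. Most rows are red across TZP and LAGIPRA and pale across PairFedVehicle and Vehicle, while Tomm70a and Tomm34 show no such block.

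These calls moved with library properties and with single libraries. When the fit included the value of 1 read, 9 genes were called in TZP and 0 in LAGIPRA, and the share of all tested genes called higher was then 4.69% in TZP and 0.145% in LAGIPRA. The slope of expression on transcript length ran from -0.172 to 0.0211 log2 per doubling in TZP and from 0.0166 to 0.0623 in Vehicle, and it was below 0 in TZP 3, 4, 5 and 6. With that slope as a covariate 3 genes were called in TZP (0.828% of all tested genes higher), and with TZP libraries 1 and 2 alone 9 were called (3.15%). Without TZP 3, PairFedVehicle 5 and Vehicle 1, the libraries near 0 for muscle, 14 genes were called in TZP (8.42% of all tested genes higher) and 8 in LAGIPRA (4.95%). The LAGIPRA count of 15 was 6, 8 and 9 without LAGIPRA 4, 5 and 6, and 9 without Vehicle 3 or Vehicle 6. For fits without 1 library the share of all tested genes is not given here, so whether these falls are particular to the members cannot be told. No gene was called lower in TZP or LAGIPRA under any of these settings, and all 22 genes called in TZP kept a positive fold change with either covariate and with TZP 1 and 2 alone.

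**Figure D2:**
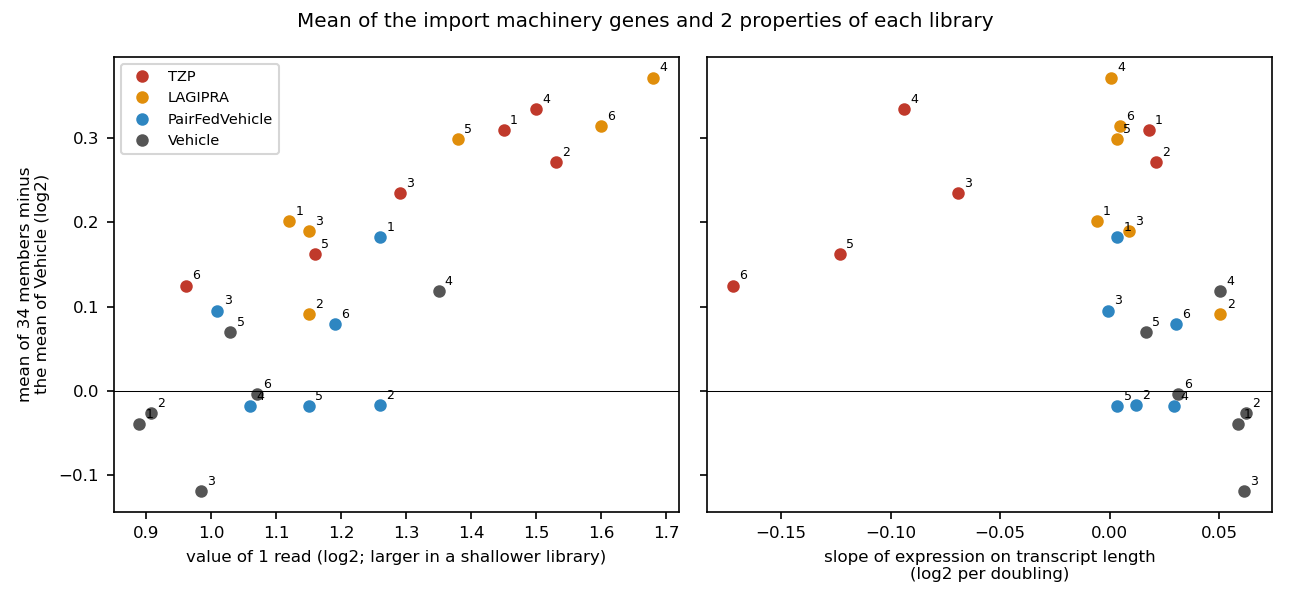
Points are the 24 libraries, numbered by replicate; the vertical axis is the mean of the 34 genes minus the Vehicle mean (log2), and the horizontal axes are the value of 1 read (log2, left) and the slope of expression on transcript length (log2 per doubling, right). The mean is highest in LAGIPRA 4 (0.372) and TZP 4 (0.335), which have values of 1 read of 1.68 and 1.50, and lowest in Vehicle 3 (-0.119).

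Averaged over the 34 genes, the TZP libraries lay 0.31, 0.272, 0.235, 0.335, 0.162 and 0.125 above the Vehicle mean in the order of replicates 1 to 6. The LAGIPRA libraries lay 0.202, 0.0914, 0.19, 0.372, 0.299 and 0.314 above it. PairFedVehicle ran from -0.0181 to 0.183 and Vehicle from -0.119 to 0.118. All TZP libraries were thus above all Vehicle libraries, LAGIPRA 2 was within the Vehicle range, and PairFedVehicle 1 lay among the drug libraries. Within the TZP group libraries 5 and 6, with the lowest values of 1 read (1.16 and 0.962), had the lowest averages. In the LAGIPRA group libraries 4, 5 and 6, with the highest values of 1 read (1.68, 1.38 and 1.60), had the highest averages, and Vehicle 4, the highest of its group in value of 1 read (1.35), had the highest Vehicle average. PairFedVehicle did not follow this order: libraries 1 and 2 had the highest values of 1 read (1.26 each) and averages of 0.183 and -0.0167, and library 3, with the lowest (1.01), averaged 0.0952. The part of depth in these values was not tested beyond the fits above. In LAGIPRA, libraries 4, 5 and 6 also had the lowest macrophage means (7.61, 7.59 and 7.75). PairFedVehicle 1 had the lowest of its group (7.85), and PairFedVehicle 5, averaging -0.0179, the highest (9.54). TZP 1, 2 and 4 had the lowest of theirs (7.77, 8.09 and 7.97), but TZP 3, with the highest (8.93), averaged above TZP 5 and 6. Medians were 8.29 in TZP, 8.09 in LAGIPRA, 8.55 in PairFedVehicle and 9.02 in Vehicle. The part of macrophage content was not tested. The members' transcripts are shorter than most, with a median of 2046 bases against 2677 over all tested genes.

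As a description without a test, the promoters of the members were searched for the recognition letters of factors known to act on nuclear genes for mitochondria. RefSeq windows from 250 bases before to 50 after the start (mouse build GRCm38.p6) were present for 30 of the 34 genes. Both strands were searched for CCGGAAG, the core of GABPA and other ETS factors, GCGCATGC, the core of NRF1, and AAGGTCA, a sequence bound by the estrogen-related receptors. CCGGAAG was in the windows of 14 of the 30 genes (46.7%), against 9.93% of all genes with a window and 18.5% of tested genes with one. GCGCATGC was in 2 (6.67%, against 3.05% and 5.35%), Grpel1 and Timm13. AAGGTCA was in 5 (16.7%, against 5.38% and 4.13%), Timm23, Timm44, Timm8b, Hspd1 and Hspe1. Hspd1 and Hspe1 are neighbours with overlapping windows. Their CCGGAAG matches lie on the same bases of the genome, as do their AAGGTCA matches, so each such site counts for both genes. Of the 14 genes with CCGGAAG 8 were higher in TZP than in Vehicle, and of the 16 windows without it 12 were. A match is a run of letters and not a measured binding site.

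Of the exon-free stretches before the start that hold CCGGAAG, 3 are shown, from genes called under both drugs (Timmdc1), under tirzepatide (Tomm22) and under neither (Tomm70a). Capitals mark CCGGAAG or its reverse complement CTTCCGG, and runs of 10 capitals hold both, overlapping. The Timmdc1 stretch is chr16:38522664-38522843 on the minus strand and ends directly before the start. The Tomm22 stretch is chr15:79670688-79670860 and the Tomm70a stretch is chr16:57121534-57121702, both on the plus strand.
Timmdc1: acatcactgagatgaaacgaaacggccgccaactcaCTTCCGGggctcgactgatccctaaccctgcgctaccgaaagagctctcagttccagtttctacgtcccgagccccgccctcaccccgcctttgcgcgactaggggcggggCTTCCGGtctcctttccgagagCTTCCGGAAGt
Tomm22: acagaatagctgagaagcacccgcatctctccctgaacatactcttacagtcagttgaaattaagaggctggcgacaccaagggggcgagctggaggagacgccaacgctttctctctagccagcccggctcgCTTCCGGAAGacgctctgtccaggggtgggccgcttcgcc
Tomm70a: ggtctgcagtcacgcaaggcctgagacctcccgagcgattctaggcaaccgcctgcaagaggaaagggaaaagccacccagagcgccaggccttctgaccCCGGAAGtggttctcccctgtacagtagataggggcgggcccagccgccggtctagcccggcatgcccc
Tomm70a, whose promoter carries the motif, thus stands among the genes without a call.

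In the outer membrane, 5 of 9 TOM complex genes were higher in TZP than in Vehicle and 2 of 9 in LAGIPRA, with medians of 0.30 and 0.15. Values below are the lowest, median and highest of the 6 libraries of a group. Tomm40, the channel through which precursors cross the outer membrane, was at 7.74, 7.87 and 7.96 in TZP, 7.55, 7.84 and 7.96 in LAGIPRA, 7.51, 7.72 and 7.96 in PairFedVehicle, and 7.45, 7.50 and 7.70 in Vehicle. All 6 TZP libraries and 5 of 6 LAGIPRA libraries lay above the highest Vehicle library. The log2 fold change against Vehicle was 0.32 in TZP (SE 0.073, limma adjusted p = 0.0048) and 0.25 in LAGIPRA (SE 0.073, adjusted p = 0.0276). The LAGIPRA call of Tomm40 ended without any 1 of LAGIPRA 4, 5 and 6 and Vehicle 1, 2, 3 and 6 (adjusted p 0.052 to 0.0689).

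Tomm40l, a second gene of the TOM40 channel family, was at 7.20, 7.24 and 7.46 in TZP, 7.15, 7.29 and 7.55 in LAGIPRA, 6.78, 6.94 and 7.20 in PairFedVehicle, and 6.77, 6.93 and 7.18 in Vehicle. TZP did not overlap Vehicle, and 5 of 6 LAGIPRA libraries lay above it. It rose by 0.35 in TZP (SE 0.079, adjusted p = 0.00473) and 0.40 in LAGIPRA (SE 0.079, adjusted p = 0.00665). Tomm22, the central receptor that ties the complex together, was at 8.09, 8.19 and 8.39 in TZP, 7.75, 8.10 and 8.27 in LAGIPRA, 7.83, 7.96 and 8.09 in PairFedVehicle, and 7.78, 7.93 and 7.99 in Vehicle. TZP lay above all Vehicle libraries, and LAGIPRA overlapped them. Tomm22 rose by 0.30 in TZP (SE 0.076, adjusted p = 0.00827), and the LAGIPRA change of 0.15 did not pass (adjusted p = 0.173).

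Among the small TOM subunits, which steady the channel, Tomm5 was at 8.08, 8.14 and 8.30 in TZP, 7.77, 8.01 and 8.21 in LAGIPRA, 7.60, 7.97 and 8.28 in PairFedVehicle, and 7.58, 7.86 and 8.03 in Vehicle. TZP lay above all Vehicle libraries (0.32, SE 0.096, adjusted p = 0.0214, and 0.0614 without Vehicle 1), and in LAGIPRA the change was 0.15 (adjusted p = 0.286). Tomm6 was at 8.74, 8.93 and 8.97 in TZP, 8.63, 8.74 and 8.97 in LAGIPRA, 8.57, 8.69 and 8.77 in PairFedVehicle, and 8.67, 8.71 and 8.83 in Vehicle. It rose by 0.17 in TZP (SE 0.055, adjusted p = 0.031), with 5 of 6 libraries above all Vehicle libraries. Corrected for transcript length, the Tomm6 change was -0.0217 (adjusted p = 0.831), and the call also ended without any 1 of TZP 3, 4 and 6 and Vehicle 2, 3 and 6 (adjusted p 0.0567 to 0.0728). Tomm7, the third small subunit, overlapped in all groups, from 10.90 to 11.25 in TZP, 11.07 to 11.32 in LAGIPRA, 10.92 to 11.13 in PairFedVehicle and 10.88 to 11.24 in Vehicle.

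The receptors that first bind precursors were not called in the main fit, which held all 24 samples and no covariate. Tomm20, the receptor for cleavable targeting sequences, was at 7.41, 7.52 and 7.72 in TZP, 7.44, 7.50 and 7.64 in LAGIPRA, 7.43, 7.45 and 7.62 in PairFedVehicle, and 7.33, 7.39 and 7.45 in Vehicle. Its changes against Vehicle were 0.14 in TZP (adjusted p = 0.0857) and 0.13 in LAGIPRA (adjusted p = 0.116), with 4 and 5 of 6 libraries above all Vehicle libraries. After the transcript length correction, Tomm20 was among the 14 genes called higher in TZP. Tomm70a, the receptor for carrier precursors, was at 7.33, 7.57 and 7.84 in TZP, 7.52, 7.62 and 7.86 in LAGIPRA, 7.57, 7.70 and 7.77 in PairFedVehicle, and 7.43, 7.65 and 7.76 in Vehicle. All groups overlapped, with -0.07 in TZP (SE 0.075, adjusted p = 0.569) and 0.01 in LAGIPRA (adjusted p = 0.94). Tomm20l, related to Tomm20, was the noisiest member, at 2.95, 3.70 and 4.31 in TZP, 3.21, 4.18 and 4.48 in LAGIPRA, 2.69, 3.74 and 3.86 in PairFedVehicle, and 2.90, 3.27 and 3.90 in Vehicle. Its LAGIPRA change of 0.70 (SE 0.264, adjusted p = 0.0728) did not pass. Tomm34, a cytosolic cochaperone, had values of 5.52 to 6.22 in TZP, 5.79 to 6.12 in LAGIPRA, 5.78 to 6.21 in PairFedVehicle and 5.83 to 6.19 in Vehicle, with log2 changes of -0.06 in TZP (adjusted p = 0.723) and -0.12 in LAGIPRA (adjusted p = 0.444).

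**Figure D3:**
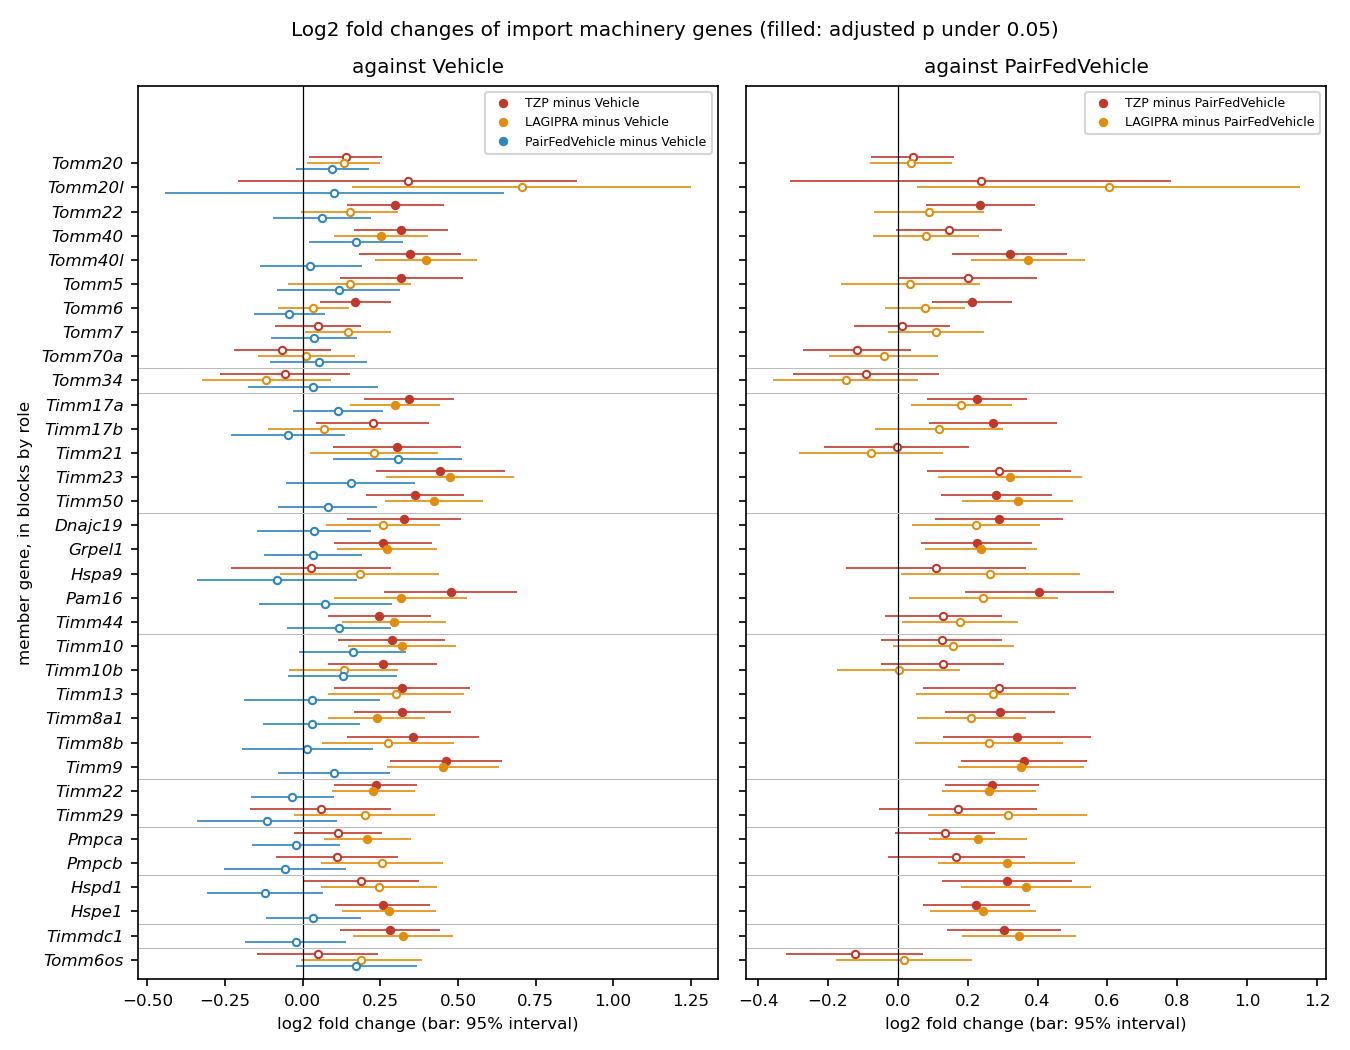
Points are log2 fold changes of the 34 genes with 95% intervals, against Vehicle (left: TZP, LAGIPRA and PairFedVehicle) and against PairFedVehicle (right: TZP and LAGIPRA); filled points have an adjusted p under 0.05. All filled points lie to the right of 0, and no PairFedVehicle point is filled.

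At the inner membrane, 4 of 5 genes of the TIM23 channel and its receptors were higher in TZP and 3 of 5 in LAGIPRA, with medians of 0.34 and 0.30. Timm23, the channel subunit for precursors with a cleavable sequence, was at 6.24, 6.55 and 6.75 in TZP, 6.36, 6.55 and 6.77 in LAGIPRA, 6.11, 6.25 and 6.35 in PairFedVehicle, and 5.90, 6.00 and 6.53 in Vehicle. Vehicle 4 reached into the range of both drugs, and the other 5 Vehicle libraries lay below all TZP and LAGIPRA libraries. Timm23 rose by 0.44 in TZP (SE 0.10, adjusted p = 0.00428) and 0.47 in LAGIPRA (SE 0.10, adjusted p = 0.00762). Its TZP call is the only 1 of the 22 that held under every alternative tried, with adjusted p from 0.00109 to 0.0419.

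Timm50, the receptor that takes over precursors from the outer membrane, was at 7.91, 8.01 and 8.20 in TZP, 7.85, 8.13 and 8.25 in LAGIPRA, 7.64, 7.75 and 7.90 in PairFedVehicle, and 7.51, 7.65 and 7.86 in Vehicle. TZP lay above all Vehicle and all PairFedVehicle libraries, and LAGIPRA 2 alone of its group fell within them. Timm50 rose by 0.36 in TZP (SE 0.077, adjusted p = 0.00286) and 0.42 in LAGIPRA (SE 0.077, adjusted p = 0.00514). Timm21, which links TIM23 with the outer membrane complex, was at 6.36, 6.46 and 6.79 in TZP, 6.17, 6.44 and 6.76 in LAGIPRA, 6.37, 6.52 and 6.70 in PairFedVehicle, and 5.99, 6.17 and 6.52 in Vehicle. The log2 changes were alike in TZP (0.30, adjusted p = 0.0327) and PairFedVehicle (0.31, SE 0.10, adjusted p = 0.0586), and all groups overlapped Vehicle. The TZP call of Timm21 ended without any 1 of TZP 1 and 4 and Vehicle 1, 2 and 3 (adjusted p 0.0524 to 0.0918), and PairFedVehicle passed without Vehicle 4 (0.37, adjusted p = 0.0226) or without PairFedVehicle 5 (adjusted p = 0.0482).

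The paralogs Timm17a and Timm17b encode alternative partners of the TIM23 channel. Timm17a was at 8.64, 8.84 and 9.03 in TZP, 8.69, 8.81 and 8.90 in LAGIPRA, 8.40, 8.66 and 8.78 in PairFedVehicle, and 8.31, 8.50 and 8.65 in Vehicle. It rose by 0.34 in TZP (SE 0.070, adjusted p = 0.00224) and 0.30 in LAGIPRA (SE 0.070, adjusted p = 0.0121), and LAGIPRA did not overlap Vehicle. Timm17b was at 6.62, 6.83 and 7.06 in TZP, 6.60, 6.68 and 6.92 in LAGIPRA, 6.38, 6.56 and 6.91 in PairFedVehicle, and 6.42, 6.67 and 6.78 in Vehicle. Its changes of 0.23 in TZP (adjusted p = 0.0702) and 0.07 in LAGIPRA (adjusted p = 0.617) did not pass. Whether the paralogs' changes differ was not tested.

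The import motor had 4 of 5 genes higher in TZP and 3 of 5 in LAGIPRA, with medians of 0.26 and 0.27. Pam16, which restrains the J protein of the motor, was at 6.92, 7.21 and 7.37 in TZP, 6.75, 7.05 and 7.22 in LAGIPRA, 6.51, 6.83 and 6.95 in PairFedVehicle, and 6.47, 6.73 and 6.93 in Vehicle. With 0.48 in TZP (SE 0.103, adjusted p = 0.00327) it had the largest change of the 34 genes in that comparison, a 1.39-fold difference, and 5 of 6 TZP libraries lay above all Vehicle libraries. In LAGIPRA it rose by 0.32 (SE 0.103, adjusted p = 0.0443), and this ended without any 1 of LAGIPRA 1, 4, 5 and 6 and Vehicle 1, 2, 3 and 6 (adjusted p 0.0621 to 0.115).

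Timm44, the scaffold that holds the motor at the channel, was at 7.692, 8.002 and 8.243 in TZP, 7.90, 8.06 and 8.22 in LAGIPRA, 7.67, 7.85 and 8.10 in PairFedVehicle, and 7.59, 7.76 and 7.86 in Vehicle. TZP 6 alone of its group fell within the Vehicle range, and LAGIPRA did not overlap it. The rise was 0.25 in TZP (adjusted p = 0.0317) and 0.30 in LAGIPRA (adjusted p = 0.0214). It ended in TZP without any 1 of TZP 1, 4 and 5 and Vehicle 1, 2 and 3 (adjusted p 0.0553 to 0.0905), and in LAGIPRA without LAGIPRA 4, LAGIPRA 5 or Vehicle 3 (0.0553 to 0.0621). Grpel1, the exchange factor that resets the motor, was at 10.54, 10.81 and 10.97 in TZP, 10.63, 10.77 and 10.97 in LAGIPRA, 10.41, 10.53 and 10.76 in PairFedVehicle, and 10.37, 10.50 and 10.64 in Vehicle. It rose by 0.26 in TZP (SE 0.077, adjusted p = 0.0195, and 0.0525 without Vehicle 3) and 0.27 in LAGIPRA (SE 0.077, adjusted p = 0.0252), where the call ended without any 1 of LAGIPRA 4, 5 and 6 and Vehicle 3 and 6 (0.0582 to 0.068).

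Hspa9, the mitochondrial Hsp70 that does the pulling, was at 10.25, 10.80 and 11.24 in TZP, 10.78, 10.90 and 11.13 in LAGIPRA, 10.41, 10.66 and 10.90 in PairFedVehicle, and 10.48, 10.75 and 10.90 in Vehicle. The TZP libraries lay on both sides of the Vehicle range, and the change was 0.03 in TZP (SE 0.124, adjusted p = 0.902) and 0.18 in LAGIPRA (SE 0.124, adjusted p = 0.325). Dnajc19, the J protein that stimulates Hspa9, was at 6.05, 6.16 and 6.36 in TZP, 5.93, 6.15 and 6.30 in LAGIPRA, 5.74, 5.87 and 6.17 in PairFedVehicle, and 5.63, 5.85 and 6.08 in Vehicle. It rose by 0.33 in TZP (SE 0.089, adjusted p = 0.012), and the LAGIPRA change of 0.26 did not pass (adjusted p = 0.0534). Dnajc19 shares sequence with Dnajc19-ps, which averaged 11.03 in TZP, 10.999 in LAGIPRA, 10.91 in PairFedVehicle and 10.79 in Vehicle, so the split of reads between them is uncertain. The sum of both, of which the pseudogene entry is by far the larger part, rose by 0.24 in TZP (adjusted p = 0.0117) and 0.21 in LAGIPRA (adjusted p = 0.0379). Dnajc19-ps alone was at 0.24 and 0.21, so the sum says little of Dnajc19 itself.

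**Figure D4:**
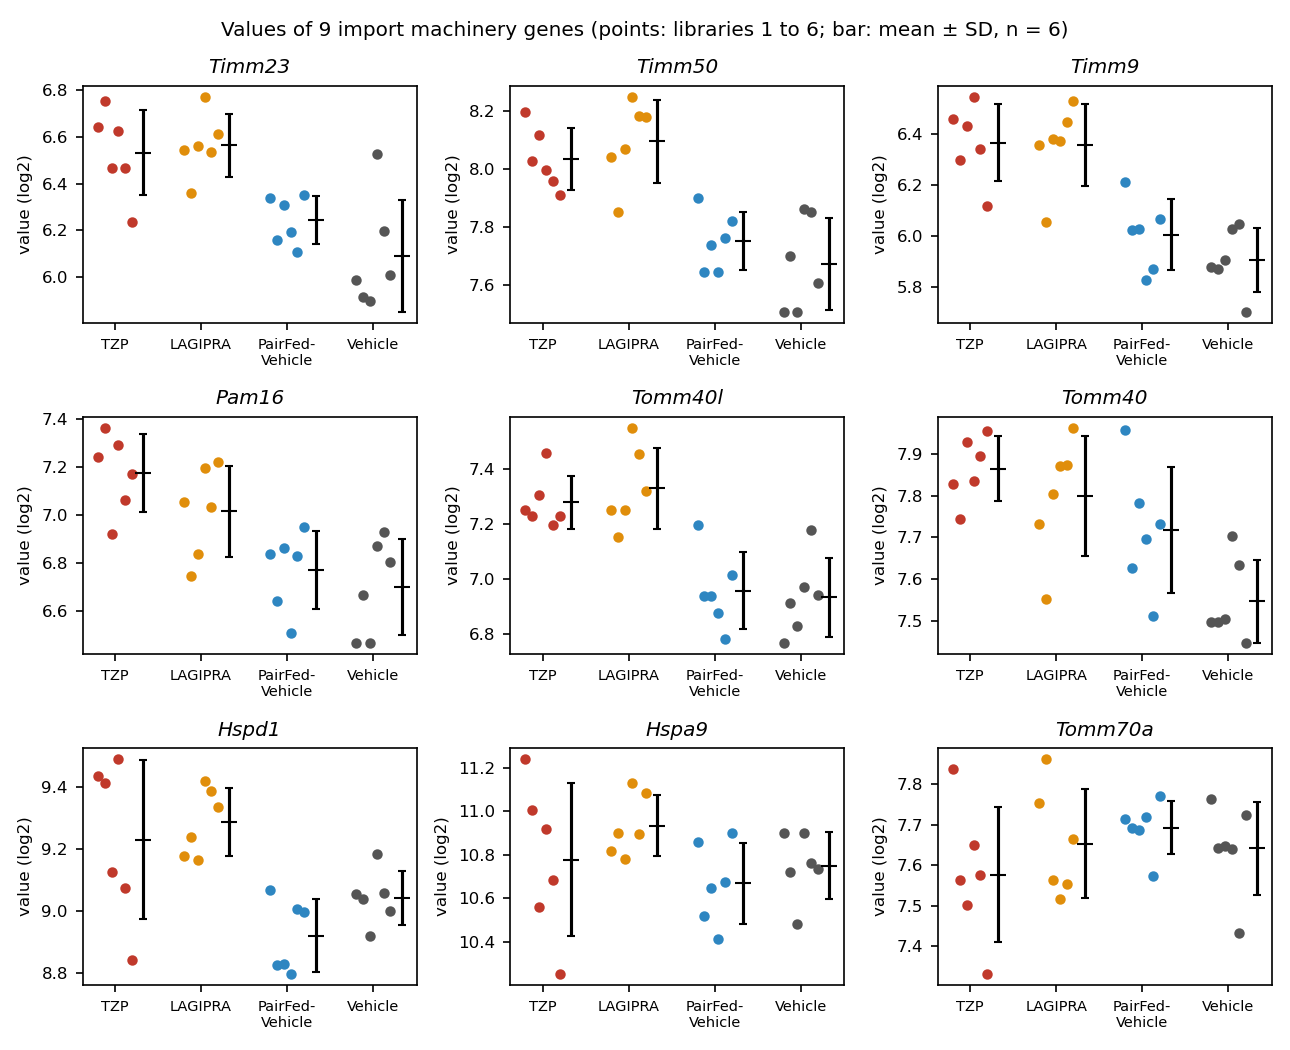
Log2 values of 9 genes in libraries 1 to 6 of each group, left to right, with the mean and SD of each group (n = 6) beside them; the axes do not start at 0. Timm9, Timm50 and Tomm40l are higher in TZP than in every Vehicle library, Hspd1 in LAGIPRA lies above every PairFedVehicle library, and Hspa9 and Tomm70a overlap between all groups.

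All 6 small TIM chaperone genes were higher in TZP and 3 of 6 in LAGIPRA, with medians of 0.32 and 0.29. Timm9 and Timm10 form the ring that carries hydrophobic precursors across the intermembrane space. Timm9 was at 6.12, 6.39 and 6.55 in TZP, 6.05, 6.38 and 6.53 in LAGIPRA, 5.83, 6.02 and 6.21 in PairFedVehicle, and 5.70, 5.89 and 6.04 in Vehicle. Neither drug group overlapped Vehicle, with a rise of 0.46 in TZP (SE 0.087, adjusted p = 0.00141) and 0.45 in LAGIPRA (SE 0.087, adjusted p = 0.00527). Timm10 was at 9.01, 9.15 and 9.31 in TZP, 8.99, 9.19 and 9.45 in LAGIPRA, 8.85, 9.04 and 9.26 in PairFedVehicle, and 8.76, 8.87 and 8.99 in Vehicle. Both drug groups again lay above all Vehicle libraries, by 0.29 in TZP (SE 0.084, adjusted p = 0.0178) and 0.32 in LAGIPRA (SE 0.084, adjusted p = 0.0177, and 0.0535 without LAGIPRA 4).

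Timm8a1 and Timm13 form a second such ring, and Timm8b is related to Timm8a1. Timm8a1 was at 8.86, 9.16 and 9.41 in TZP, 9.01, 9.08 and 9.14 in LAGIPRA, 8.64, 8.85 and 9.08 in PairFedVehicle, and 8.66, 8.81 and 8.99 in Vehicle. It rose by 0.32 in TZP (SE 0.076, adjusted p = 0.0054) and by 0.24 in LAGIPRA (SE 0.076, adjusted p = 0.0393), where the 6 libraries lay above all of Vehicle. The LAGIPRA call ended without any 1 of LAGIPRA 1, 4, 5 and 6 and Vehicle 1, 2, 3 and 6 (adjusted p 0.0538 to 0.103). Timm8b was at 10.91, 11.15 and 11.37 in TZP, 10.91, 11.06 and 11.30 in LAGIPRA, 10.67, 10.77 and 11.06 in PairFedVehicle, and 10.39, 10.86 and 11.02 in Vehicle. It rose by 0.36 in TZP (SE 0.102, adjusted p = 0.0164), and the LAGIPRA change of 0.28 did not pass (adjusted p = 0.0709).

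Timm13 ran from 10.18 to 10.51 in TZP, 9.94 to 10.56 in LAGIPRA, 9.82 to 10.43 in PairFedVehicle and 9.90 to 10.23 in Vehicle. It rose by 0.32 in TZP (SE 0.106, adjusted p = 0.0328), which ended without any 1 of TZP 3, 5 and 6 and Vehicle 1, 2, 3 and 6 (adjusted p 0.055 to 0.0737), and its LAGIPRA change was 0.30 (adjusted p = 0.0579). Timm10b, which sits on the TIM22 complex, was at 7.59, 7.66 and 7.93 in TZP, 7.43, 7.60 and 7.78 in LAGIPRA, 7.42, 7.58 and 7.82 in PairFedVehicle, and 7.33, 7.44 and 7.63 in Vehicle. It rose by 0.26 in TZP (SE 0.085, adjusted p = 0.0324), which ended without any 1 of TZP 3 and 6 and Vehicle 1, 2 and 3 (adjusted p 0.0718 to 0.0779), and its LAGIPRA change of 0.13 did not pass (adjusted p = 0.295).

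In the TIM22 complex, which inserts carriers into the inner membrane, 1 of 2 genes was higher under each drug. Timm22, the channel, was at 6.92, 6.97 and 7.03 in TZP, 6.76, 7.01 and 7.06 in LAGIPRA, 6.52, 6.73 and 6.85 in PairFedVehicle, and 6.63, 6.73 and 6.87 in Vehicle. The TZP libraries were tightly spread and lay above all Vehicle and all PairFedVehicle libraries. The rise was 0.24 in TZP (SE 0.065, adjusted p = 0.013) and 0.23 in LAGIPRA (SE 0.065, adjusted p = 0.026), where it ended without any 1 of LAGIPRA 4, 5 and 6 and Vehicle 1, 2 and 6 (adjusted p 0.0502 to 0.0692). Timm29, a further subunit of the complex, overlapped in all groups, from 8.54 to 9.05 in TZP, 8.74 to 9.14 in LAGIPRA, 8.23 to 9.01 in PairFedVehicle and 8.63 to 8.92 in Vehicle, and its changes of 0.06 in TZP (adjusted p = 0.747) and 0.20 in LAGIPRA (adjusted p = 0.213) did not pass.

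In the matrix, the processing peptidase that cuts off targeting sequences had 0 of 2 genes called in TZP and 1 of 2 in LAGIPRA. Pmpca, its alpha subunit, was at 7.35, 7.54 and 7.66 in TZP, 7.44, 7.62 and 7.72 in LAGIPRA, 7.24, 7.37 and 7.55 in PairFedVehicle, and 7.30, 7.39 and 7.51 in Vehicle. It rose by 0.21 in LAGIPRA (SE 0.068, adjusted p = 0.0455) and was at 0.11 in TZP (adjusted p = 0.243). The LAGIPRA call ended without any 1 of LAGIPRA 1, 3, 4, 5 and 6 and Vehicle 1, 3 and 6 (adjusted p 0.0514 to 0.105). Pmpcb, the catalytic beta subunit, was at 9.52, 9.80 and 10.02 in TZP, 9.80, 9.92 and 10.11 in LAGIPRA, 9.48, 9.60 and 9.88 in PairFedVehicle, and 9.43, 9.68 and 9.85 in Vehicle, with 0.11 in TZP (adjusted p = 0.429) and 0.26 in LAGIPRA (adjusted p = 0.0703).

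Hspe1 and Hspd1 encode the lid and barrel of the chaperonin that folds imported proteins. Hspe1 was at 10.09, 10.37 and 10.63 in TZP, 10.28, 10.39 and 10.57 in LAGIPRA, 10.01, 10.16 and 10.25 in PairFedVehicle, and 10.05, 10.08 and 10.31 in Vehicle. It rose by 0.26 in TZP (SE 0.074, adjusted p = 0.0157) and 0.28 in LAGIPRA (SE 0.074, adjusted p = 0.019, and 0.0567 without LAGIPRA 4). Hspd1 was at 8.84, 9.27 and 9.49 in TZP, 9.17, 9.29 and 9.42 in LAGIPRA, 8.80, 8.91 and 9.07 in PairFedVehicle, and 8.92, 9.05 and 9.19 in Vehicle. Its changes against Vehicle were 0.19 in TZP (adjusted p = 0.135) and 0.25 in LAGIPRA (adjusted p = 0.0677), and PairFedVehicle was at -0.12 (adjusted p = 0.455). With TZP 1 and 2 alone, Hspd1 was among the 9 genes called higher in TZP. Reads of Hspd1 may be shared with Hspd1-ps3, which averaged 12.61 in TZP, 12.68 in LAGIPRA, 12.30 in PairFedVehicle and 12.36 in Vehicle.

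Timmdc1, an assembly factor of respiratory complex I that belongs to the same protein family as TIM17, TIM22 and TIM23, was at 6.82, 6.93 and 7.14 in TZP, 6.93, 6.97 and 7.14 in LAGIPRA, 6.50, 6.66 and 6.81 in PairFedVehicle, and 6.45, 6.67 and 6.90 in Vehicle. It rose by 0.28 in TZP (SE 0.078, adjusted p = 0.0137) and 0.32 in LAGIPRA (SE 0.078, adjusted p = 0.0134), and LAGIPRA did not overlap Vehicle. The rule also took in Tomm6os, a noncoding transcript antisense to Tomm6. It was at 7.47, 7.71 and 7.72 in TZP, 7.67, 7.73 and 8.16 in LAGIPRA, 7.53, 7.76 and 8.04 in PairFedVehicle, and 7.45, 7.61 and 7.75 in Vehicle, and its change of 0.05 in TZP (adjusted p = 0.755) and 0.19 in LAGIPRA (adjusted p = 0.172) did not pass. Whether counting used strand is not stated, so reads of Tomm6 and Tomm6os where they overlap cannot be told apart.

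Set against PairFedVehicle, 16 of the 34 genes were higher in TZP and 0 lower, with 8.39% of all tested genes higher and 8.02% lower. In LAGIPRA 11 were higher and 0 lower, with 7.3% of all tested genes higher and 4.55% lower. The median log2 fold change of the 34 genes was 0.23 in both comparisons, against 0.00 and -0.01 over all tested genes. The genes Grpel1, Hspe1, Timm22, Timm50, Timm9, Timmdc1 and Tomm40l were called in all 4 comparisons of a drug with Vehicle or PairFedVehicle, which share samples. Of these, Grpel1 and Hspe1 each lost the TZP call against PairFedVehicle without any 1 of 9 libraries (adjusted p to 0.108 and 0.0969), and the LAGIPRA call against PairFedVehicle without any 1 of 8 (Grpel1, to 0.12) or 6 (Hspe1, to 0.0925). Against PairFedVehicle, Timm22 rose by 0.27 in TZP (SE 0.065, adjusted p = 0.00722) and 0.26 in LAGIPRA (SE 0.065, adjusted p = 0.0102). Tomm40l rose by 0.32 in TZP (SE 0.079, adjusted p = 0.00839) and 0.37 in LAGIPRA (SE 0.079, adjusted p = 0.00332). Timm9 rose by 0.36 in TZP (SE 0.087, adjusted p = 0.00695) and 0.35 in LAGIPRA (SE 0.087, adjusted p = 0.00958).

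Timm50 was higher than in PairFedVehicle by 0.28 in TZP (adjusted p = 0.0146) and 0.34 in LAGIPRA (adjusted p = 0.00481), and Timmdc1 by 0.30 in TZP (adjusted p = 0.0105) and 0.35 in LAGIPRA (adjusted p = 0.0051). Hspd1, which had not passed against Vehicle in the main fit, rose by 0.31 in TZP (adjusted p = 0.0206) and 0.37 in LAGIPRA (SE 0.090, adjusted p = 0.00913), where all 6 LAGIPRA libraries lay above all 6 PairFedVehicle libraries. The sum of Hspd1 and its pseudogenes, most of which is Hspd1-ps3, was at 0.32 in TZP (adjusted p = 0.0385) and 0.39 in LAGIPRA (adjusted p = 0.0179) against PairFedVehicle. Hspd1-ps3 alone was at 0.31 and 0.38. Both peptidase subunits passed in LAGIPRA, Pmpca at 0.23 (adjusted p = 0.0304) and Pmpcb at 0.31 (adjusted p = 0.0332), and these calls ended without any 1 of 6 libraries for Pmpca (adjusted p to 0.0771) and of 7 for Pmpcb (to 0.0888). In TZP, Pam16 rose by 0.41 (SE 0.103, adjusted p = 0.01), Timm8a1 by 0.29 (adjusted p = 0.0107), Tomm6 by 0.21 (adjusted p = 0.0111) and Timm17b by 0.27 (adjusted p = 0.0374), of which Timm17b lost its call without any 1 of 7 libraries (adjusted p to 0.0924). Tomm40, which passed against Vehicle under both drugs, was at 0.15 in TZP (adjusted p = 0.185) and 0.08 in LAGIPRA (adjusted p = 0.524) against PairFedVehicle, where PairFedVehicle itself lay 0.17 above Vehicle (adjusted p = 0.156). Dnajc19 rose by 0.29 in TZP (adjusted p = 0.0274), a call that ended without any 1 of 5 libraries (adjusted p to 0.07). The sum with its pseudogene, mostly the pseudogene entry, did not pass (0.13, adjusted p = 0.208).

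The counts against PairFedVehicle depended on fewer than all libraries and on the setting. In TZP the 16 calls (8.39% of all tested genes higher) were 9 without TZP 4 and 8 without PairFedVehicle 4. They were 8 in a fit of only the samples compared (5.28% of all tested genes higher) and 10 after the transcript length correction (8.54%). They were 6 with TZP 1 and 2 alone (4.06%) and 5 when the fit included the length slope (3.84%). In LAGIPRA the 11 calls (7.3% of all tested genes higher) were 6 without LAGIPRA 4, 5 or 6 or PairFedVehicle 2 or 4. They were 7 without PairFedVehicle 5, and 6 when the fit included the value of 1 read (4.51%). In both comparisons the share of all tested genes is not given for the fits without 1 library. Of the 16 TZP calls 8 held when any single library was left out, and of the 11 LAGIPRA calls 6 did. The LAGIPRA calls of Hspd1, Timm22, Timm50, Timm9, Timmdc1 and Tomm40l against PairFedVehicle held under every alternative tried, the covariates included. Samples did not overlap for 4 genes in TZP (Timm22, Tomm40l, Timm50 and Timmdc1), where 3.17% of all tested genes lay above PairFedVehicle without overlap, and for 4 in LAGIPRA (Hspd1, Hspe1, Timm23 and Timmdc1), where 3.7% did. Against Vehicle, 8 genes lay above without overlap in TZP (3.39% of all tested genes) and 6 in LAGIPRA (3.16%).

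TZP and LAGIPRA were not told apart at these genes. In TZP against LAGIPRA limma called 0 of 34 higher and 0 lower, with 0.0521% of all tested genes higher and 0.348% lower. At an unadjusted p under 0.05, 1 gene of the 34, Tomm6, was higher (0.14, adjusted p = 0.217), against 2835 of the 17263 tested genes in either direction. For the 33 genes other than Tomm20l the 95% intervals of the difference lay between -0.414 (Hspa9) and 0.374 (Pam16), so log2 differences of 0.5 or more lay outside the interval of each. That limit exceeds the largest drug change of these 33 genes against Vehicle (0.48, Pam16 in TZP), so the intervals do not show that the drugs are alike. Of the 23 genes called under at least 1 drug against Vehicle, 14 were called under both, 8 in TZP alone (Dnajc19, Timm10b, Timm13, Timm21, Timm8b, Tomm22, Tomm5 and Tomm6) and 1 in LAGIPRA alone (Pmpca). The difference between the drugs did not pass for any of these 9 genes. Next to Tomm6, the smallest p-values belonged to Tomm22 (0.15, adjusted p = 0.344), Timm17b (0.15, adjusted p = 0.392) and Tomm5 (0.17, adjusted p = 0.4).

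Further genes of import lie outside the naming rule. The list holds 20 genes for outer membrane insertion, the disulphide relay, inner membrane insertion, motor helpers and further peptidases. Calls in this list and in the protease list below come from the main fit alone. How they fare under the alternatives tried for the members is not given here. In TZP 14 were higher and 1 lower than in Vehicle (median 0.27), against 11.7% and 10.3% of all tested genes. In LAGIPRA 11 were higher and 0 lower (median 0.27), against 8.7% and 5.03%. In PairFedVehicle 1 was higher and 0 lower (median 0.12), against 4.96% and 3.66%, so the higher count is near the share of all tested genes. Oxa1l, which inserts proteins into the inner membrane from the matrix side, rose by 0.28 in TZP (SE 0.057, adjusted p = 0.00213) and 0.31 in LAGIPRA (SE 0.057, adjusted p = 0.00514). Agk, a lipid kinase that is also a TIM22 subunit, rose by 0.48 in TZP (SE 0.106, adjusted p = 0.00356) and 0.34 in LAGIPRA (adjusted p = 0.0352). Cox18, an insertase for a cytochrome oxidase subunit, rose by 0.52 in TZP (SE 0.116, adjusted p = 0.00377), and Samm50, the core of the outer membrane assembly complex, by 0.33 in LAGIPRA (SE 0.072, adjusted p = 0.00994). Mipep, which trims precursors after the processing peptidase, rose by 0.46 in LAGIPRA (adjusted p = 0.0109). Xpnpep3, a peptidase, was the 1 gene that fell, by 1.17 in TZP (SE 0.316, adjusted p = 0.0112), at low means of 3.96 in TZP and 5.13 in Vehicle. The 2 groups overlapped, with 2 TZP libraries above the Vehicle median, and PairFedVehicle was at -0.61 against Vehicle (adjusted p = 0.251). Mtx1, a partner of Samm50, was the 1 gene higher in PairFedVehicle (0.19, adjusted p = 0.0363), and it also rose in TZP (0.24, adjusted p = 0.00519) and LAGIPRA (0.24, adjusted p = 0.0112).

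Against PairFedVehicle, 3 of the 20 were higher in TZP (8.39% of all tested genes were), with Agk at 0.44 (adjusted p = 0.00699), Cox18 at 0.38 (adjusted p = 0.0265) and Chchd4, the oxidoreductase of the disulphide relay, at 0.30 (adjusted p = 0.044). In LAGIPRA 1 was higher, Mipep at 0.35 (adjusted p = 0.032), a share no larger than the 7.3% of all tested genes. In a list of 9 genes of mitochondrial proteases and stress chaperones, 1 was higher in TZP than in Vehicle, Clpp at 0.34 (SE 0.087, adjusted p = 0.009), which is near the 11.7% of all tested genes. In LAGIPRA 3 of the 9 were higher, against 8.7% of all tested genes, Afg3l2 at 0.34 (adjusted p = 0.0186), Spg7 at 0.28 (adjusted p = 0.02) and Clpp at 0.30 (adjusted p = 0.0278). Clpx, the partner of Clpp in the matrix protease, was the 1 gene of the 9 higher in PairFedVehicle than in Vehicle (0.45, SE 0.096, adjusted p = 0.00424), against 4.96% of all tested genes. Clpx was also the 1 gene of the 9 lower in TZP than in PairFedVehicle (-0.29, adjusted p = 0.042), against 8.02% of all tested genes. Against PairFedVehicle, 1 of the 9 was higher in TZP, Htra2, a protease of the intermembrane space (0.21, adjusted p = 0.0479). In LAGIPRA 1 was higher, Afg3l2, a subunit of an inner membrane protease (0.38, adjusted p = 0.0075). All tested genes were higher at 8.39% in TZP and 7.3% in LAGIPRA, and 1 call of 9 is near these shares.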

How the data were processed

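Brown adipose tissue polyA RNA was sequenced in 24 samples (4 groups of 6). TRIzol and an RNeasy lipid kit served for extraction, per the labels' protocols. The submitters' processing notes name cutadapt 1.9.1 and GSNAP 2013-11-27. Genome build, annotation, counting and strandedness: not given in the sources used here. As for units, the values as deposited by the authors were taken as log2 per gene with quantile normalization. This scale and the offset near 1 were inferred from the values, which ran from -0.50 to 22.35, so the offset is not exact. Quantile normalization makes each value relative to the rest of its library.

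Genes with a mean in the lowest 25% (below 2.86, 5754 genes) were left out. The other 17263 were tested with limma 3.58.1 in R 4.3.3 on all 24 samples, with 1 mean per group, moderated variances following a mean-variance trend, two-sided tests and Benjamini-Hochberg adjustment over all tested genes (threshold 0.05). Standard errors of log2 fold changes had a median of 0.15. Read depth is unknown. Transcript lengths are those of the longest protein-coding transcript in GENCODE mouse M21, known for 15407 tested genes (89.2%) and for all 34 members. Promoter sequences are from RefSeq. Figures used matplotlib 3.10.9 in Python 3.11.15. The tests were tried on simulated data first.

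Members and lists were chosen with earlier results of these data known. Group values are given for the defining genes of each role, the 4 members with the smallest p in each comparison and numbered paralogs, and further lists give up to 3 genes that passed per comparison. Timm8a2 was not analysed here. Alternatives were other filters, normalization, variance models, sample weights, fits of fewer samples, a replicate block, length, depth and muscle covariates, and removal of each library. Those with TZP 1 and 2 alone, the length slope as a covariate, the 3 libraries low in muscle left out, and summed pseudogenes were chosen after seeing the data.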

Additional observations from a re-analysis of the deposited data

Results flagged for a closer look

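In 136 groups of 6 values (34 genes in 4 groups), 7 had a highest or lowest library whose gap to the nearest of the others exceeded Dixon's 95% critical value (gap over range), where chance gives about 1 group in 20. In LAGIPRA 2, Tomm20l was low at 3.214 (next 4.019) and Timm9 was low at 6.054 (next 6.354). In LAGIPRA 3, Tomm34 was high at 6.124 (next 5.912). In LAGIPRA 4, the library with the largest value of 1 read, Tomm6os was high at 8.155 (next 7.835). In LAGIPRA 5, Timmdc1 was high at 7.141 (next 6.986). In TZP 3, Tomm22 was high at 8.387 (next 8.200), and in Vehicle 5, Tomm70a was low at 7.433 (next 7.641).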

How the results depend on the processing

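Of 64 calls of a member in a comparison, 7 held under every alternative tried. Over the alternatives other than leaving out 1 library, 751 of 934 repeats of a called result kept direction and call, 182 kept direction only, and 1 reversed: Tomm6 in TZP against Vehicle was -0.0217 after the transcript length correction. Leaving out 1 library kept 608 of 768 and reversed 0. In what follows, the percentage in brackets is the share of all tested genes called higher. Genes called higher in TZP against Vehicle (22, 11.7%) numbered 14 after the length correction (11.3%) and 9 with the value of 1 read as covariate (4.69%). They numbered 9 with TZP 1 and 2 alone (3.15%), 3 with the length slope as covariate (0.828%) and 14 without the 3 libraries low in muscle (8.42%). For LAGIPRA against Vehicle (15, 8.7%) they numbered 0 with the value of 1 read as covariate (0.145%) and 8 without the libraries low in muscle (4.95%). For TZP against PairFedVehicle (16, 8.39%) they numbered 8 in a fit of the samples compared (5.28%) and 10 after the length correction (8.54%). They numbered 6 with TZP 1 and 2 alone (4.06%), 5 with the length slope (3.84%) and 10 without the libraries low in muscle (6.62%). For LAGIPRA against PairFedVehicle (11, 7.3%) they numbered 17 with sample weights (10.5%), and 6 with the value of 1 read (4.51%) or without the libraries low in muscle (5.43%). For PairFedVehicle against Vehicle (0, 4.96%) 1 gene, Timm21, was higher among genes above the median level (6.79%), with sample weights (7.22%) and with the replicate block (4.23%). In the same comparison 1 gene, Hspd1, was lower with the value of 1 read (-0.197, adjusted p = 0.0472). Leaving out each library gave 16 to 22, 6 to 19, 8 to 18, 6 to 14 and 0 to 1 higher in these comparisons in that order, and 0 to 0 in TZP against LAGIPRA. The share of all tested genes in those fits is not given.

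With the replicate number as a block, 20 genes were higher in TZP against Vehicle (10.8% of all tested genes) and 12 in LAGIPRA against Vehicle (7.47%). There were 14 in TZP against PairFedVehicle (7.74%) and 9 in LAGIPRA against PairFedVehicle (6.52%). There was 1 in PairFedVehicle against Vehicle (4.23%) and 0 in TZP against LAGIPRA (0.0232%). Samples share only a number: same-numbered deviations correlated at -0.0445 to 0.378 for LAGIPRA and Vehicle, where 3 of 6 LAGIPRA samples correlated best with their own number, and at -0.0624 to 0.283 for TZP and Vehicle. The cause of these shifts was not tested. Depth is unknown, which limits what can be said of weakly expressed members such as Tomm20l.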

Other observations

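Hspd1-ps4, a pseudogene of Hspd1 that the naming rule leaves out and that was singled out after its values were seen, averaged 7.10 ± 0.363 in TZP, 7.12 ± 0.212 in LAGIPRA, 6.15 ± 0.354 in PairFedVehicle and 7.03 ± 0.159 in Vehicle (log2, SD, n = 6 each). It was lower in PairFedVehicle than in Vehicle (-0.89, SE 0.158, limma adjusted p = 0.000977), with overlap between the groups. It was higher than in PairFedVehicle by 0.95 in TZP (adjusted p = 0.000406) and by 0.97 in LAGIPRA (adjusted p = 0.000305). Hspd1 itself was at -0.12 in PairFedVehicle against Vehicle (adjusted p = 0.455), and how reads were split between them is not known.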
